A study of Homo sapiens with 8 samples.

Results

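LKB1 knockdown in T98, an established human glioblastoma line, was read from 4 RNA-seq libraries. Of these, 2 came from T98 cells given a control siRNA and 2 from T98 cells given an LKB1 siRNA, all collected 72 h after transfection. The other 4 of the study's 8 libraries hold the same pair of siRNA labels in U87, another glioblastoma line. All groups were grown in DMEM with serum and received siRNA through a lipid reagent, so no group was left untransfected. Each line is a single model. How many siRNAs were used and which sequences they had is not stated in these sources, and the duplicates may be technical. The p-values therefore measure only the spread between these libraries. A gene was included when its deposited value, a read count brought to a common library size, was at least 10 in 2 or more of the 4 T98 libraries. This kept 13160 of the 18787 gene symbols in the deposited table.

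LKB1, encoded by STK11, is a serine-threonine kinase, active when bound by a pseudokinase of the STRAD type and the scaffold MO25. It phosphorylates AMPK, which restrains anabolic metabolism when energy is low, and a family of AMPK-related kinases that act on cell polarity and transcription. Among these, the salt-inducible kinases keep the CRTC coactivators of CREB out of the nucleus.

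Each T98 group had 1 library on sequencing lane 2 and 1 on lane 4, as the deposited column names state, and the libraries were paired by that lane. Recovered totals were 29061329 to 33181547 reads per T98 library. The lane carried more of the variation than the siRNA did. Libraries of the same group differed between lanes by an SD of 0.824 (control) and 0.817 (LKB1 siRNA) on the log2 scale, and the LKB1 siRNA library differed from its control by an SD of 0.752 on lane 2 and 0.494 on lane 4. The lane difference was shared, with a correlation of 0.771 across genes between the control and the LKB1 siRNA groups. Of 19 astrocyte and glioma markers, 7 were under 10 in every T98 library. Vimentin (VIM) and CD44 were abundant, both above 34020 in every T98 library. SOX9 (1244.6 to 3086.2), GJA1 (2060.6 to 3440.9), EGFR (3170.8 to 9854.6) and SLC1A3 (260 to 586) were also expressed. GFAP (8.6 or less), S100B and SOX2 (both at 0) were nearly absent, and S100B and SOX2 were also at 3.48 or less in the U87 libraries. MGMT, the alkyltransferase known to be made in T98 and silent in U87, was at 375 to 531 in the T98 libraries and 1.25 or less in the U87 libraries. In what follows, values of a pair of libraries are given as lane 2 and then lane 4, and fold changes are on the log2(value + 1) scale.

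STK11, the targeted gene, was lower under the LKB1 siRNA (NM_000455, chromosome 19, 1205798 to 1228434 on the plus strand of hg19). Its values were 1999 and 2041 in the control libraries and 339.9 and 588 in the LKB1 siRNA libraries. Both LKB1 siRNA libraries lay below both controls, and the library on lane 4 kept more of the transcript than the one on lane 2. By limma-trend with a lane term STK11 fell by 2.17 (SE 0.20, adjusted p = 0.00158), and it changed by −2.55 on lane 2 and −1.79 on lane 4. Without the lane term STK11 did not pass (adjusted p = 0.0809).

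Of 5 genes of the LKB1 complex, STK11 was the 1 that fell and none rose, but 2 fell by edgeR and also 2 without any 1 U87 library. The pseudokinases STRADA (−0.32, adjusted p = 0.126) and STRADB (−0.15, adjusted p = 0.536) and the MO25 scaffolds CAB39 (−0.11, adjusted p = 0.518) and CAB39L (−0.61, adjusted p = 0.0651) did not pass. Of 6 AMPK subunits tested, the regulatory subunit PRKAB2 fell, with values of 1999.7 and 1563 with control siRNA and 1141 and 1155 with LKB1 siRNA and a change of −0.62 (SE 0.15, adjusted p = 0.0316). Its groups did not overlap, but the call was lost without either lane 2 library, and 2 subunits passed without either lane 4 library. The catalytic subunit PRKAA1 was at 3259.8 and 3461 with control siRNA and 1812 and 2935 with LKB1 siRNA, a log2 fold change of −0.54 that missed the threshold (adjusted p = 0.058). The other AMPK subunits lay between −0.22 (PRKAG1) and 0.15 (PRKAA2).

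Among 11 AMPK-related kinases tested, 2 rose (18.2%) and 1 fell (9.09%), against 9.72% and 8.75% of all genes. The synapse-associated kinase BRSK1 was at 117 and 260.3 with control siRNA and 526 and 616 with LKB1 siRNA, and the groups did not overlap. BRSK1 rose by 1.70 (SE 0.22, adjusted p = 0.00461), the largest change of the family. The salt-inducible kinase SIK1, itself a CREB target, was at 712 and 304 with control siRNA and 1333 and 697 with LKB1 siRNA, so the lane 4 library with LKB1 siRNA lay below the lane 2 control. SIK1 nonetheless rose within each pair, by 0.90 on lane 2 and 1.20 on lane 4, and passed at 1.05 (SE 0.15, adjusted p = 0.00584). Both calls remained whichever of the 8 libraries was left out. MELK, a mitotic member of the family that LKB1 is not known to activate, fell by 0.68 (SE 0.15, adjusted p = 0.0215), a call lost without either lane 2 library, while 3 members fell without either lane 4 library. SIK2 (0.19), SIK3 (−0.48), NUAK1 (−0.01), NUAK2 (−0.41), MARK2 (0.23), MARK3 (−0.30), MARK4 (0.09) and SNRK (−0.34) did not pass. Their signs are not firm: NUAK1, STRADB and PRKAB1 turned positive on lane 2 alone, and MARK4 and PRKAG2 changed sign once the trend on GC content was removed.

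Genes that act beside AMPK and mTORC1 went both ways. Of 24 tested, 6 rose (0.55 to 1.34) and 3 fell (−1.24 to −0.57), with a median of −0.20 against 0.02 over all genes. DDIT4, which restrains mTORC1 under stress, was at 2533 and 3835 with control siRNA and 6183 and 6095 with LKB1 siRNA and rose by 0.98. TXNIP, which limits glucose uptake and is degraded through AMPK, rose by 0.96, and the autophagy kinase ULK1 by 0.77. The folliculin partners FNIP1 (−0.58) and FNIP2 (−1.24) and the glycolytic regulator PFKFB2 (−0.57) fell. FNIP2 was at 1694 and 1074 with control siRNA and 537 and 608 with LKB1 siRNA, with no overlap between the groups. Removing the GC trend ended the FNIP1 and PFKFB2 calls, PFKFB2 was also lost without either lane 4 library, and 0 of the 24 passed without either lane 2 library. The falls numbered 5 by edgeR and also 5 without the lane 2 control or lane 2 LKB1 siRNA library of U87, which enter through the shared spread.

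Over the whole transcriptome, 1279 genes (9.72%) were higher and 1152 (8.75%) lower with LKB1 siRNA at an adjusted p under 0.05 by limma-trend with the lane term. The counts of each gene list, above and below, are to be read beside these shares. The median change of called genes was 0.83 and −0.77, and 455 rises and 287 falls reached 2-fold. Both LKB1 siRNA libraries lay above both controls for 2725 genes (20.7%) and below them for 2758 (21%). Within-lane fold changes had the same sign on both lanes for 9780 genes (74.3%) and correlated at 0.674 across genes, which are not independent replicates. Of the 13160 genes, 5093 were positive and 4687 negative on both lanes. The counts of list members positive or negative on both lanes are to be read beside these. In both pairs alike, 338 genes were at least 2-fold higher and 134 at least 2-fold lower. Without the lane term the same model called 4 genes higher (0.0304%) and 0 lower, with 700 and 766 at an unadjusted p under 0.05, and the 4 T98 libraries alone without it called 0. Leaving out the lane 2 control or the lane 2 LKB1 siRNA library left only the lane 4 pair, and the counts dropped to 115 higher and 51 lower, and to 103 and 52. The naming rule given with the processing selected 192 called genes, of which some are not reported here. Most of them lost the call when a lane 2 T98 library was left out.

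**Figure D1:**
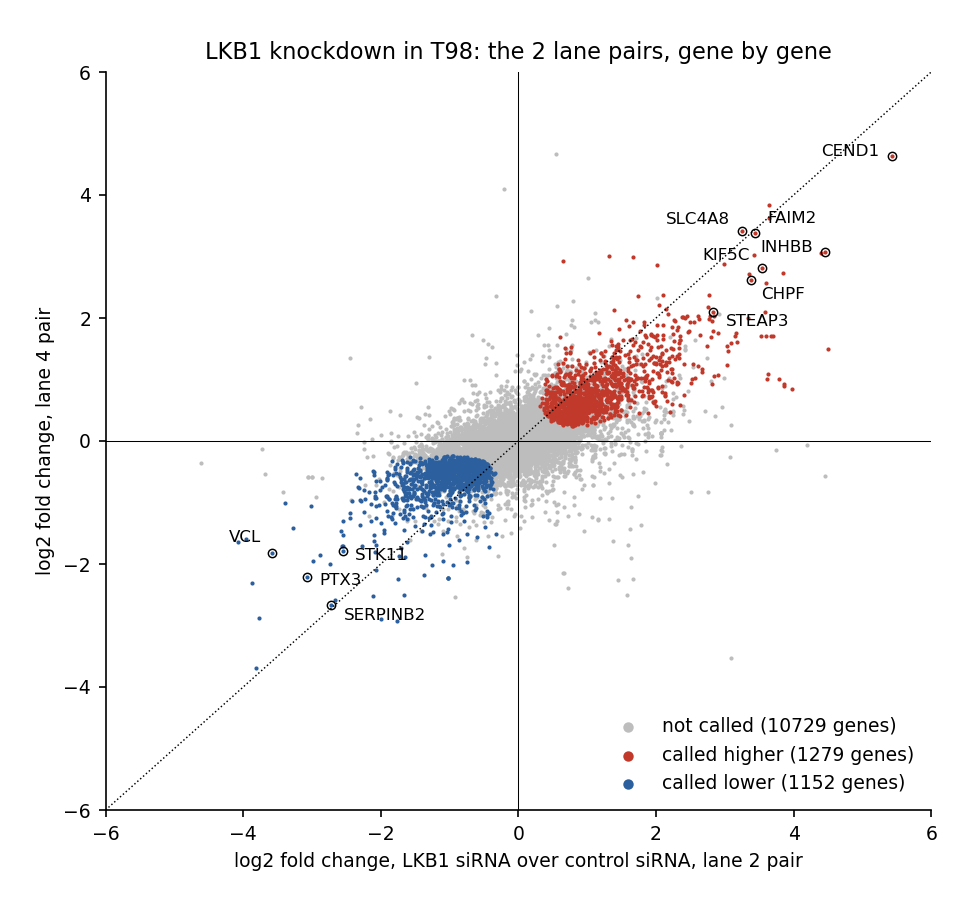
Log2 fold change of LKB1 siRNA over control siRNA in the lane 2 pair (x axis) and the lane 4 pair (y axis) for 13160 genes, 1 point per gene, with 1279 genes called higher in red and 1152 called lower in blue. Called genes lie in the quadrants where both pairs changed in the same direction, the dotted line marks equal change, and the lane 2 pair spread more widely (SD 0.752 against 0.494).

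Base composition moved with the call. Transcripts of genes that rose had a median GC content of 55.3%, those that fell 43.7%, and all matched genes 49.7%. Below 42% GC, 4.97% of genes were higher and 15.8% lower, whereas above 58% GC 15.7% were higher and 2.4% lower. Fallen transcripts were also longer, with a median of 3906 bases against 2743 for risen ones. With a smooth GC trend removed from each library, a setting chosen after seeing the data, 1203 genes were higher and 1005 lower, of which 997 and 844 were called in the same direction without it. The part of base composition in single results was not tested beyond that setting, which is named below where it ends a call.

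The leading rise was CEND1, a neuronal protein that promotes cell cycle exit (NM_016564, chromosome 11, 787110 to 790126 on the minus strand of hg19). Its values were 26.7 and 44.7 in the control libraries and 1198 and 1129 in the LKB1 siRNA libraries. Both knockdown libraries stood more than an order of magnitude above both controls, and the recovered reads behind the controls were 25 and 47. CEND1 rose by 5.03 (SE 0.21, adjusted p = 0.000137), and by 5.43 on lane 2 and 4.63 on lane 4. KIF5C, a kinesin heavy chain of axonal transport, was at 35.4 and 175 with control siRNA and 424 and 1231 with LKB1 siRNA, a rise of 3.18 (SE 0.19, adjusted p = 0.000501). The chondroitin polymerizing factor CHPF was at 630.1 and 846 with control siRNA and 6551 and 5200.4 with LKB1 siRNA and rose by 2.997 (SE 0.18, adjusted p = 0.000501). Besides the leading rises CEND1 and CHPF, the endosomal ferrireductase STEAP3 (2.46) and the processing-body protein LSM14A (1.83) also passed without the lane term. Of these 4 genes the adjusted p without it was 0.0123 for CEND1, 0.0201 for CHPF and STEAP3, and 0.0332 for LSM14A.

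INHBB, the beta B subunit of activins and inhibins, was at 53.1 and 15.1 with control siRNA and 1188 and 134 with LKB1 siRNA. The lane 2 library with LKB1 siRNA was far above the other 3. INHBB rose by 3.76, more than KIF5C, and differed by 4.46 on lane 2 and 3.07 on lane 4. SCG2, a secretogranin of dense-core vesicles, was at 198 and 512 with control siRNA and 1785 and 1725 with LKB1 siRNA, with both knockdown libraries close together. The adhesion molecule ALCAM was at 972 and 2091 with control siRNA and 4319 and 9287 with LKB1 siRNA, with a rise of 2.15 (SE 0.14, adjusted p = 0.000674), and changed by 2.15 on lane 2 and 2.15 on lane 4. EMP2, a tetraspan membrane protein, was at 515 and 943 with control siRNA and 3506 and 3738 with LKB1 siRNA and rose by 2.38. The magnesium transporter SLC41A1 was at 928 and 954 with control siRNA and 3296 and 3549 with LKB1 siRNA and rose by 1.86. All of these had groups that did not overlap, as the rule for naming them required.

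Also among the leading rises, the homeodomain-interacting kinase HIPK3 rose by 2.12, the mitochondrial topoisomerase TOP1MT by 2.43 and the histidine tRNA guanylyltransferase THG1L by 2.09. HS6ST1, which sulfates heparan chains, rose by 2.13, and CACNG4, an auxiliary subunit of AMPA receptors, by 2.41. CACNG4 was at 221 and 122 with control siRNA and 1526 and 502 with LKB1 siRNA, so its rise was larger on lane 2. Of the 15 leading rises, 12 passed whichever library was left out, the exceptions being INHBB, CACNG4 and SCG2, which were lost without a lane 2 library.

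**Figure D2:**
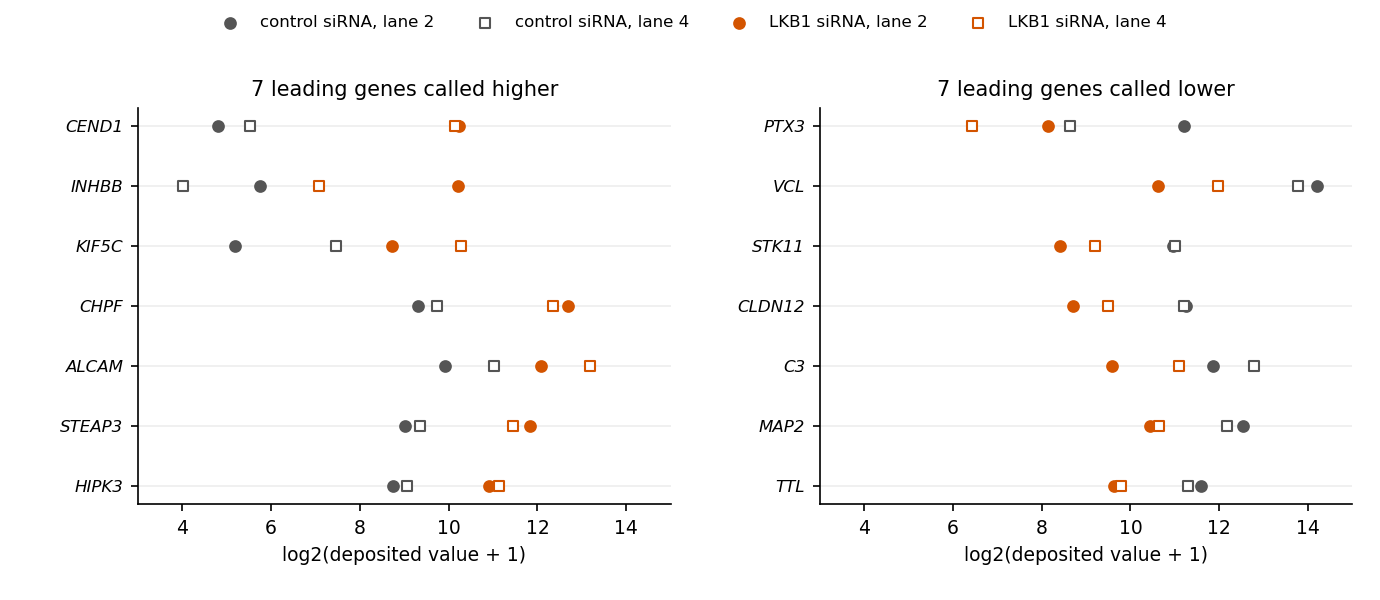
Deposited values of the first 7 leading rises (left) and first 7 leading falls (right) in each T98 library, on the log2(value + 1) scale, with circles for lane 2, squares for lane 4, grey for control siRNA and orange for LKB1 siRNA. In each row both knockdown libraries lie on one side of both controls, and genes are ordered by the smaller of their 2 within-lane changes, from CEND1 at 4.63 down to HIPK3 at 2.06 in the left panel.

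Promoter sequence was examined because CREB, whose coactivators are held back by LKB1-dependent kinases, binds the cyclic AMP response element (CRE) TGACGTCA. The palindrome reads the same on both strands and was searched in RefSeq windows from 250 bases before to 50 after each start site, with 10553 of the 13160 genes matched. The windows of KIF5C and CHPF, leading rises, and of VGF, a neuropeptide precursor, hold it, and the sites are shown 5′ to 3′ along the gene's strand with the CRE in capitals (GRCh38.p14).
KIF5C, chr2:148875153-148875182, plus strand: gacctctacggTGACGTCAccgtcccgggg
CHPF, chr2:219543968-219543997, minus strand: cgggctgcttcTGACGTCAcatgggacgca
CHPF, chr2:219544013-219544042, minus strand: gcctctgctccTGACGTCActcagggcgca
VGF, chr7:101165630-101165659, minus strand: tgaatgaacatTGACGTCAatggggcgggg
These sites lie 63, 177, 222 and 79 bases before the start site. The CRE was in 2.71% of the windows of all tested genes, 2.77% of those of genes that rose, 2.43% of those that fell and 4.67% (10 of 214 windows) of those of the 200 largest rises. Over all risen genes the share was thus close to that of all tested genes. The AP-1 motif TGANTCA, also searched on both strands, was in 5.45% of all windows, 5.27% of risen and 7.83% of fallen genes.

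Sequence was also examined in 3′ untranslated regions (UTRs). It is shown because siRNAs can act on unintended transcripts through such short matches. The heptamer GCAGTAC came from an earlier analysis of these data, so its excess here is a description and no test. It occurred in 11.6% of the 3′ UTRs of genes that rose, 3.28% of those that fell and 4.16% of all 12682 matched genes. Among the 15 leading rises, 10 carried it, against 1 of the 15 leading falls (CLDN12). Sites are shown 5′ to 3′ on the transcript strand with the heptamer in capitals (GRCh38, transcripts of GENCODE 29), for 6 of the leading rises and for LSM14A.
KIF5C, chr2:149023174-149023202, plus strand: tccagccatctGCAGTACaccagtttcag
CHPF, chr2:219539098-219539126, minus strand: cacgtatttatGCAGTACagtctgcctga
STEAP3, chr2:119263472-119263500, plus strand: ctcaaatgtatGCAGTACtattcagaatg
ALCAM, chr3:105575544-105575572, plus strand: taatttatcaaGCAGTACatgaaagtgta
HIPK3, chr11:33354719-33354747, plus strand: atttttacattGCAGTACttgttttgctt
SLC41A1, chr1:205791308-205791336, minus strand: gcctgagataaGCAGTACaagtaggtttt
LSM14A, chr19:34227645-34227673, plus strand: gttaaactaaaGCAGTACttcagtgggac
Genes with the heptamer had a median T98 change of 0.18 and 27.3% of them were called higher, against 0.01 and 9.03% of genes without it. Their 3′ UTRs were longer (median 2966 against 857 bases). CEND1, INHBB, SCG2, CACNG4 and HS6ST1 rose without carrying it. With the siRNA sequences unknown here, the part of such matches in the rises was not tested.

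STK11 itself was 1 of the 15 leading falls. VCL, which encodes vinculin and links integrins to actin, was at 18747 and 14088 with control siRNA and 1563 and 4008 with LKB1 siRNA. Both knockdown libraries were far below both controls, with the lower value on lane 2, and VCL fell by 2.70 (SE 0.33, adjusted p = 0.00424). PTX3, a secreted pentraxin of innate immunity, was at 2356 and 398 with control siRNA and 279.8 and 85.4 with LKB1 siRNA. The controls of PTX3 differed widely between lanes, yet the groups did not overlap, and it fell by 2.64 (SE 0.22, adjusted p = 0.00145). The complement component C3 was at 3712 and 7047 with control siRNA and 766 and 2169 with LKB1 siRNA and fell by 1.99 (SE 0.15, adjusted p = 0.00112).

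MAP2, a stabiliser of neuronal microtubules, was at 5980.0 and 4647 with control siRNA and 1392 and 1606 with LKB1 siRNA and fell by 1.82 (SE 0.16, adjusted p = 0.00152). TTL, the ligase that restores the terminal tyrosine of tubulin, was at 3097 and 2499 with control siRNA and 796 and 882 with LKB1 siRNA and fell by 1.73. The kinesin KIF21A fell by 2.03. Other leading falls included the claudin CLDN12 (−2.13), the glycogen branching enzyme GBE1 (−1.85), the fusion protein SNAP23 (−1.83), the sphingomyelin synthase SGMS1 (−1.72), SCCPDH (−1.70), SPRYD3 (−1.56) and the retinaldehyde dehydrogenase ALDH1A1 (−1.32). Calls of 12 of the 15 leading falls held without any 1 library, and those of KIF21A and ALDH1A1 were lost without either lane 2 library.

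Neuronal genes had the highest median of the lists with 10 or more members tested. Of the 33 members of the list, 19 were tested. They are neuronal genes, many of them known targets of the repressor REST, together with REST itself and its corepressor RCOR1. Of these 19, 11 rose (0.61 to 5.03) and 0 fell, with a median of 1.15 against 0.02 over all genes. On both lanes 16 were positive and 3 negative, and the U87 median of the list was 1.14. Besides CEND1, KIF5C and SCG2, the small GTPase RAB39B was at 2.19 and 6.69 with control siRNA and 66.1 and 63.3 with LKB1 siRNA. Its rise of 3.73 rests on few reads in the controls. RAB39B met the filter of 10 only through its LKB1 siRNA libraries. The filter thus favoured a rise, and this gene adds no support to the list count, which includes it. The exocytosis protein SNAP25 was at 85.5 and 288 with control siRNA and 439 and 898 with LKB1 siRNA and rose by 1.99 (SE 0.20, adjusted p = 0.00209). The vesicle protein synaptophysin (SYP) was at 46 and 110.3 with control siRNA and 416 and 362 with LKB1 siRNA and rose by 2.43 (SE 0.35, adjusted p = 0.00609). For SNAP25 and SYP both knockdown libraries were above both controls. The summed level of the list was 12630 to 12960 in the controls and 20840 to 24360 with LKB1 siRNA. Levels stayed modest: of 14 general neuron markers in the table, 8 were under 10 in every T98 library. Of the 5 neuron markers tested, 3 rose (SNAP25, SYP and TUBB3) and MAP2 fell by 1.82. The summed level of the 14 was 8657 to 9797 in the controls and 7767 to 11430 with LKB1 siRNA, so the groups overlapped. In bulk RNA, more cells of a type and more RNA per cell cannot be told apart. Without the lane 2 control 5 of the 19 rose, without the lane 2 LKB1 siRNA library 4, and without either lane 4 library 1 fell.

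Cyclic AMP response genes rose in part. The list holds known CREB targets and the coactivators CRTC1, CRTC2 and CRTC3. Of its 20 tested genes, 6 rose (0.58 to 1.87) and 0 fell, with a median of 0.48, and 15 were positive on both lanes. The phosphodiesterase PDE4B, which degrades cyclic AMP, was at 44.8 and 50.3 with control siRNA and 183 and 169 with LKB1 siRNA and rose by 1.87 (SE 0.17, adjusted p = 0.00158). The neurotrophin BDNF was at 529.9 and 766 with control siRNA and 2047 and 1277 with LKB1 siRNA and rose by 1.34 (SE 0.25, adjusted p = 0.0139), and SIK1, described above, is also on this list. In each of PDE4B and BDNF the groups did not overlap. The summed level of the list was 9270 to 9845 in the controls and 13230 to 13570 with LKB1 siRNA. Of 18 members with a promoter window, 2 held the CRE. Of the 20, 2 passed without either lane 2 library, and by edgeR 7 rose and 1 fell.

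Among 25 immediate-early genes, 8 rose (0.60 to 1.62) and 3 fell (−1.44 to −0.64). The MAP kinase phosphatase DUSP5 was at 334 and 327 with control siRNA and 1341 and 775 with LKB1 siRNA and rose by 1.62 (SE 0.19, adjusted p = 0.00365), the feedback inhibitor SPRY4 rose by 1.01 and the ETS factor ETV4 by 0.91. These are known transcripts of the ERK pathway. The values of SPRY4 were 234 and 2030.1 with control siRNA and 433 and 4472 with LKB1 siRNA, so the lane differed far more than the siRNA. The 3 falls were CYR61, CTGF and the factor KLF6 (−0.78). CYR61 and CTGF encode matricellular proteins and are also YAP targets. With either lane 2 library left out, 1 of the 25 rose and 0 fell.

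Targets of YAP and TEAD, the effectors of the Hippo pathway, fell in part: of 23 tested, 0 rose and 7 fell (−1.44 to −0.47), with a median of −0.25. CYR61 was at 45112 and 14450.4 with control siRNA and 14741 and 6021 with LKB1 siRNA and fell by 1.44 (SE 0.18, adjusted p = 0.0046). The lane 4 control and the lane 2 knockdown library of CYR61 were nearly equal, so the fall shows within lanes (−1.61 on lane 2 and −1.26 on lane 4). CRIM1 was at 13627 and 6636 with control siRNA and 5138 and 3659.6 with LKB1 siRNA and fell by 1.13, and the LIM protein AJUBA fell by 1.06. CTGF fell by 0.64, a call also lost without either lane 4 library. The list median was −0.40 on lane 2 and 0.02 on lane 4, and none of the 7 passed without either lane 2 library. By DESeq2, with the GC trend removed and without any 1 U87 library, 1 of the 23 rose.

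Focal adhesion genes changed in both directions. Of 23 adaptors and actin linkers, 2 rose (0.78 and 1.36) and 6 fell (−2.70 to −0.42), with a median of −0.23 and a summed level of 215700 to 280200 in the controls and 177500 to 192600 with LKB1 siRNA. Beside vinculin, the kindlin FERMT2, which activates integrins, was at 2369.6 and 1652 with control siRNA and 538 and 809 with LKB1 siRNA and fell by 1.58 (SE 0.23, adjusted p = 0.00678). The tensin TNS3 was at 30386 and 27148 with control siRNA and 12456 and 19038 with LKB1 siRNA and fell by 0.90. Talin 1 (TLN1), which also activates integrins, was at 3869.5 and 4376 with control siRNA and 9249 and 12132 with LKB1 siRNA and rose by 1.36 (SE 0.16, adjusted p = 0.00382), and zyxin (ZYX) rose by 0.78. Talin and vinculin bind each other in the same adhesion, and here their transcripts went opposite ways with no overlap between groups in either. The VCL call held whichever library was left out, whereas that of TLN1 was lost without the lane 2 LKB1 siRNA library. Of the 2 rises, TLN1 carries the heptamer GCAGTAC and ZYX does not. All 6 fallen members carry the 3′ UTR heptamer GAAGGAA, which was in 32.7% of fallen, 14.7% of risen and 17.6% of all matched genes. As with GCAGTAC, these shares are a description and no test, since the lists were chosen with earlier results of these data known. Fallen genes had longer 3′ UTRs (median 1593 against 908 bases over all genes), and the part of this heptamer was not tested. Without either lane 2 library, 2 of the 23 fell. Without either lane 4 library, 3 rose and 9 fell.

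Of 29 genes that build or modify glycosaminoglycan chains, 8 rose (0.42 to 2.997) and 0 fell, with a median of 0.36, and 20 were positive on both lanes. After CHPF, HS6ST1 was at 631 and 837 with control siRNA and 3509 and 2881 with LKB1 siRNA, with both knockdown libraries above both controls. CSGALNACT1, which starts chondroitin chains, was at 64 and 86.4 with control siRNA and 220.1 and 302 with LKB1 siRNA and rose by 1.78 (SE 0.16, adjusted p = 0.00149), nearly alike on the lanes (1.77 on lane 2 and 1.79 on lane 4). The summed level rose from 56550 to 62110 in the controls to between 70600 and 75640 with LKB1 siRNA. CHPF carries the heptamer GCAGTAC, and the other 7 risen members do not. Of the 29, 3 passed without either lane 2 library, and 9 rose and 1 fell without either lane 4 library.

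Matrix proteins were divided. Of 28 tested, 7 rose (25%, 0.62 to 1.46) and 5 fell (17.9%, −2.03 to −0.41), against 9.72% and 8.75% of all genes. Tenascin C (TNC) was at 665 and 379.7 with control siRNA and 2184 and 764 with LKB1 siRNA and rose by 1.36 (SE 0.21, adjusted p = 0.00786). The proteoglycan versican (VCAN) rose by 1.46 and the fibrillar collagen COL5A1 by 0.96, the latter at 11609.5 and 11168 with control siRNA and 22085 and 22328 with LKB1 siRNA with no overlap. Basement membrane collagen COL4A1 was at 9969.9 and 6829 with control siRNA and 3202 and 3276 with LKB1 siRNA and fell by 1.35 (SE 0.21, adjusted p = 0.00786). The fibrillin FBN2 fell by 2.03 and lumican (LUM) fell by 1.18. VCAN was lost without either lane 4 library, and the counts without either lane 2 library were 0 rises and 1 fall. Among 13 plasminogen activators and serpins, tissue plasminogen activator (PLAT) rose by 1.47 and the inhibitor SERPINB2, at 147 and 70.1 with control siRNA and 21.5 and 10.1 with LKB1 siRNA, fell by 2.70 (SE 0.15, adjusted p = 0.000459). The sheddase ADAM17 was at 5187 and 4666 with control siRNA and 1682 and 2399 with LKB1 siRNA and fell by 1.29 (SE 0.17, adjusted p = 0.00462), and both SERPINB2 and ADAM17 passed whichever library was left out.

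Glycolytic genes rose by small amounts. Of 23 genes of glycolysis and lactate transport, 11 rose (0.41 to 0.74) and 1 fell, with a median of 0.41, and 18 were positive on both lanes. Lactate dehydrogenase A (LDHA) was at 63262 and 56668 with control siRNA and 105979 and 84546 with LKB1 siRNA and rose by 0.66 (SE 0.13, adjusted p = 0.0144). Triose phosphate isomerase (TPI1) was at 30093 and 36608 with control siRNA and 56957 and 54036 with LKB1 siRNA and rose by 0.74, and the lactate carrier SLC16A1 was at 5088 and 4386 with control siRNA and 8188 and 6718 with LKB1 siRNA and rose by 0.65. Hexokinase 1 (HK1), the entry enzyme, was at 9413 and 13037 with control siRNA and 4927 and 8829.5 with LKB1 siRNA and fell by 0.75. The groups did not overlap for LDHA, TPI1, SLC16A1 or HK1. The 11 rises fell to 7 with the GC trend removed, to 6 without any 1 U87 library and to 1 without either lane 2 library of T98, and the median GC content of the list was 54.8%. Of 22 hypoxia genes, 6 rose (0.64 to 1.60) and 1 fell. Carbonic anhydrase CA9 was at 28 and 273 with control siRNA and 134 and 537 with LKB1 siRNA and rose by 1.60, and the mitophagy receptor BNIP3 rose by 0.64. Without a lane 2 library 0 or 1 of the 22 rose. Of 33 respiratory chain subunits 1 was higher (SDHB, 0.47) and 1 lower (ATP5C1, −0.47). Both calls were lost without any 1 U87 library, and that of ATP5C1 also with the GC trend removed. More subunits were higher without either lane 4 library.

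Stress-response genes were read from 2 lists. Of 26 genes of ATF4 and the amino acid response, 11 rose (0.41 to 1.82) and 1 fell, with a median of 0.41. GDF15, a stress cytokine, was at 653 and 791 with control siRNA and 2898 and 2218 with LKB1 siRNA and rose by 1.82 (SE 0.19, adjusted p = 0.00255). The pseudokinase TRIB3 was at 2531 and 2069.6 with control siRNA and 5997 and 2960.3 with LKB1 siRNA and rose by 0.88, and the 1 fall was the cystine carrier SLC7A11 at −0.95. Of 21 genes of the unfolded protein response, 11 rose (0.50 to 0.95) and 3 fell (−1.03 to −0.47), with a median of 0.50. The secreted chaperone MANF was at 2799 and 2456 with control siRNA and 5659 and 4519.8 with LKB1 siRNA and rose by 0.95 (SE 0.12, adjusted p = 0.0046). DNAJB11 rose by 0.80 and HYOU1 by 0.77, both chaperones of the endoplasmic reticulum. The 3 falls were parts of degradation and signalling in that compartment: SEL1L (−1.02), DNAJC3 (−1.01) and EDEM1 (−0.47), the last lost with the GC trend removed. Summed chaperone levels were 237500 to 258200 in the controls and 310500 to 344400 with LKB1 siRNA. Leaving out either lane 2 library left 1 ATF4 gene and 0 chaperones higher.

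Of 25 Wnt pathway genes, 8 rose (0.59 to 2.11) and 0 fell, with a median of 0.32, and the secreted or membrane antagonists SFRP1, DKK1 and APCDD1 were among the rises. SFRP1 was at 972 and 506 with control siRNA and 3092 and 1188 with LKB1 siRNA and rose by 1.45 (SE 0.29, adjusted p = 0.017). DKK3, a Dickkopf family member, was at 5196 and 6488 with control siRNA and 11267 and 10009.8 with LKB1 siRNA and rose by 0.87, and the receptor FZD8 rose by 0.87. DKK3 did not overlap between groups, and FZD8 also kept both knockdown libraries above both controls. Of the 25, 0 passed without either lane 2 library, and 1 fell without either lane 4 library. Among 27 axon guidance genes, 8 rose (0.43 to 2.05) and 3 fell. The semaphorin receptor PLXNA2 was at 280.2 and 169 with control siRNA and 933 and 871 with LKB1 siRNA and rose by 2.05 (SE 0.18, adjusted p = 0.00147). The ephrin receptor EPHA4 rose by 1.19, while the ligand EFNB2 was at 103 and 66.4 with control siRNA and 42 and 27.9 with LKB1 siRNA and fell by 1.25 (SE 0.15, adjusted p = 0.00375). Without either lane 2 library 1 guidance gene rose and 1 fell. Of 15 Notch pathway genes, the ligand DLL1 (1.42), the target HEY1 (1.04) and the nuclear effector RBPJ (0.71) rose, and the receptor NOTCH3 fell by 1.46 (SE 0.16, adjusted p = 0.00324). NOTCH3 passed whichever library was left out, the 3 rises were lost without either lane 2 library, and DLL1 also without either lane 4 library.

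Inflammatory genes had the lowest median of the lists with 10 or more members tested. Of 23 NF-kB targets and cytokines, 12 fell (−2.64 to −0.55) and 1 rose, with a median of −0.61 (−0.69 on lane 2 and −0.47 on lane 4), and 18 were negative on both lanes. After PTX3, the signalling adaptor TRAF1 was at 842 and 194 with control siRNA and 278 and 84.5 with LKB1 siRNA and fell by 1.39 (SE 0.18, adjusted p = 0.00461). TNFAIP3, the feedback deubiquitinase of the pathway, was at 692 and 386 with control siRNA and 299.6 and 226 with LKB1 siRNA and fell by 0.99 (SE 0.16, adjusted p = 0.00812). For TRAF1 the lane 2 knockdown library stood above the lane 4 control, so its fall shows within lanes (−1.60 on lane 2 and −1.19 on lane 4). The 1 rise was the cytokine CSF2, at 12.7 and 5.64 with control siRNA and 56.6 and 18.5 with LKB1 siRNA, a log2 fold change of 1.81 on few reads. CSF2 met the filter of 10 only with its LKB1 siRNA libraries, which favoured a rise. Summed levels were 21920 to 33920 in the controls and 17930 to 19790 with LKB1 siRNA. The falls also numbered 12 with the GC trend removed and under edgeR and DESeq2, and came to 8 without either lane 4 library and to 1 without either lane 2 library. Macrophage and leukocyte markers were low (7 of 12 under 10 in every T98 library), with summed levels of 841.4 to 1327 in the controls and 640 to 767.4 with LKB1 siRNA, and CD68 fell by 0.63, a call lost without any 1 T98 library. The part of such cells in the falls was not tested.

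Of 33 interferon-stimulated genes, 5 fell (15.2%, −2.34 to −0.65) and 2 rose (6.06%), with a median of −0.19. Over all genes 8.75% fell and 9.72% rose. IFIT3 was at 943 and 1281 with control siRNA and 449 and 828 with LKB1 siRNA and fell by 0.85, IFI44L fell by 1.15 and OAS2 fell by 0.77, while the membrane proteins IFITM1 (0.66) and IFITM3 (0.63), close copies whose reads may be shared, rose. OAS2 was at 356 and 1001 with control siRNA and 174 and 705 with LKB1 siRNA, and its groups overlapped. None of the 7 passed without either lane 2 library, and the falls numbered 8 by edgeR and 7 or 8 without 1 U87 library.

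Of 24 NRF2 targets, 8 fell (−1.03 to −0.56) and 1 rose, with a median of −0.32, and 17 were negative on both lanes. Both knockdown libraries lay below both controls for 15 of the 24, where 21% of all genes did so. Sulfiredoxin (SRXN1) was at 61866 and 66989 with control siRNA and 30643 and 32511 with LKB1 siRNA and fell by 1.03 (SE 0.16, adjusted p = 0.00812). The aldo-keto reductase AKR1B10 was at 45444 and 75188 with control siRNA and 22805 and 36825 with LKB1 siRNA and fell by 1.01 (SE 0.13, adjusted p = 0.00462), and PGD of the pentose phosphate pathway was at 48333 and 45461 with control siRNA and 29002 and 29165 with LKB1 siRNA and fell by 0.69. In SRXN1, PGD and AKR1B10 both knockdown libraries were below both controls. Heme oxygenase HMOX1 went the other way, at 2435 and 1458 with control siRNA and 6008 and 1892 with LKB1 siRNA and 0.84. AKR1B10 and the AKR1C genes of this list are close copies whose reads may be shared. The falls were 9 in number with the GC trend removed, 6 without either lane 4 library and 0 without either lane 2 library. The autophagy receptor SQSTM1, another NRF2-responsive transcript, was at 123298 and 108574 with control siRNA and 75476 and 58392 with LKB1 siRNA and fell by 0.80 (SE 0.12, adjusted p = 0.00786).

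Receptor tyrosine kinases and ligands gave 6 falls (20.7%) and 1 rise (3.45%) among 29, against 8.75% and 9.72% of all genes. The ligand NRG4 was at 42.8 and 106 with control siRNA and 5.9 and 16.9 with LKB1 siRNA and fell by 2.63 (SE 0.36, adjusted p = 0.00552). NRG4 met the filter of 10 only with its control libraries, which favoured a fall. The insulin receptor INSR was at 416 and 377 with control siRNA and 137 and 218 with LKB1 siRNA and fell by 1.19 (SE 0.21, adjusted p = 0.0117), and TYRO3 fell by 0.58 while its family's ligand GAS6 rose by 0.94. The groups did not overlap for NRG4, INSR or TYRO3. Of 14 DUSP phosphatases, 3 rose and 3 fell (21.4% each). In the p53 list 5 of 19 rose (26.3%) and 4 fell (21.1%). The apoptotic BBC3 rose by 1.11 and FAS fell by 0.93. MDM2, at 1566 and 1121 with control siRNA and 611 and 756 with LKB1 siRNA, fell by 0.96. Without either lane 2 library 0 of the p53 genes and 0 of the rises among the receptors passed.

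Ribosomal protein genes were higher by small amounts, with 33 of 36 positive on both lanes, against 5093 of all 13160 genes. The median was 0.37 (0.61 on lane 2 and 0.16 on lane 4), and 6 passed (0.49 to 0.55) while 0 fell. RPL27 was at 10999 and 9535 with control siRNA and 18722 and 11971 with LKB1 siRNA and rose by 0.55, and RPS18 was at 17588 and 17457 with control siRNA and 30076 and 21622 with LKB1 siRNA and rose by 0.54. The count was 3 with the GC trend removed, 12 by DESeq2, 24 without either lane 4 library, 2 without any 1 U87 library and 0 without either lane 2 library. These genes have many pseudogene copies that can share their reads. Among metabolic and iron genes, STEAP3 was at 516 and 650.4 with control siRNA and 3672 and 2794 with LKB1 siRNA and the mitochondrial iron importer SLC25A37 at 849 and 925 with control siRNA and 1862 and 1551 with LKB1 siRNA (0.94), both without overlap. The sterol enzyme HMGCS1 was at 12534 and 5582 with control siRNA and 3965 and 2506 with LKB1 siRNA and fell by 1.41 (SE 0.16, adjusted p = 0.00328), while DHCR7 and MSMO1 of the same pathway rose (0.51 and 0.60), DHCR7 only with the GC trend kept.

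**Figure D3:**
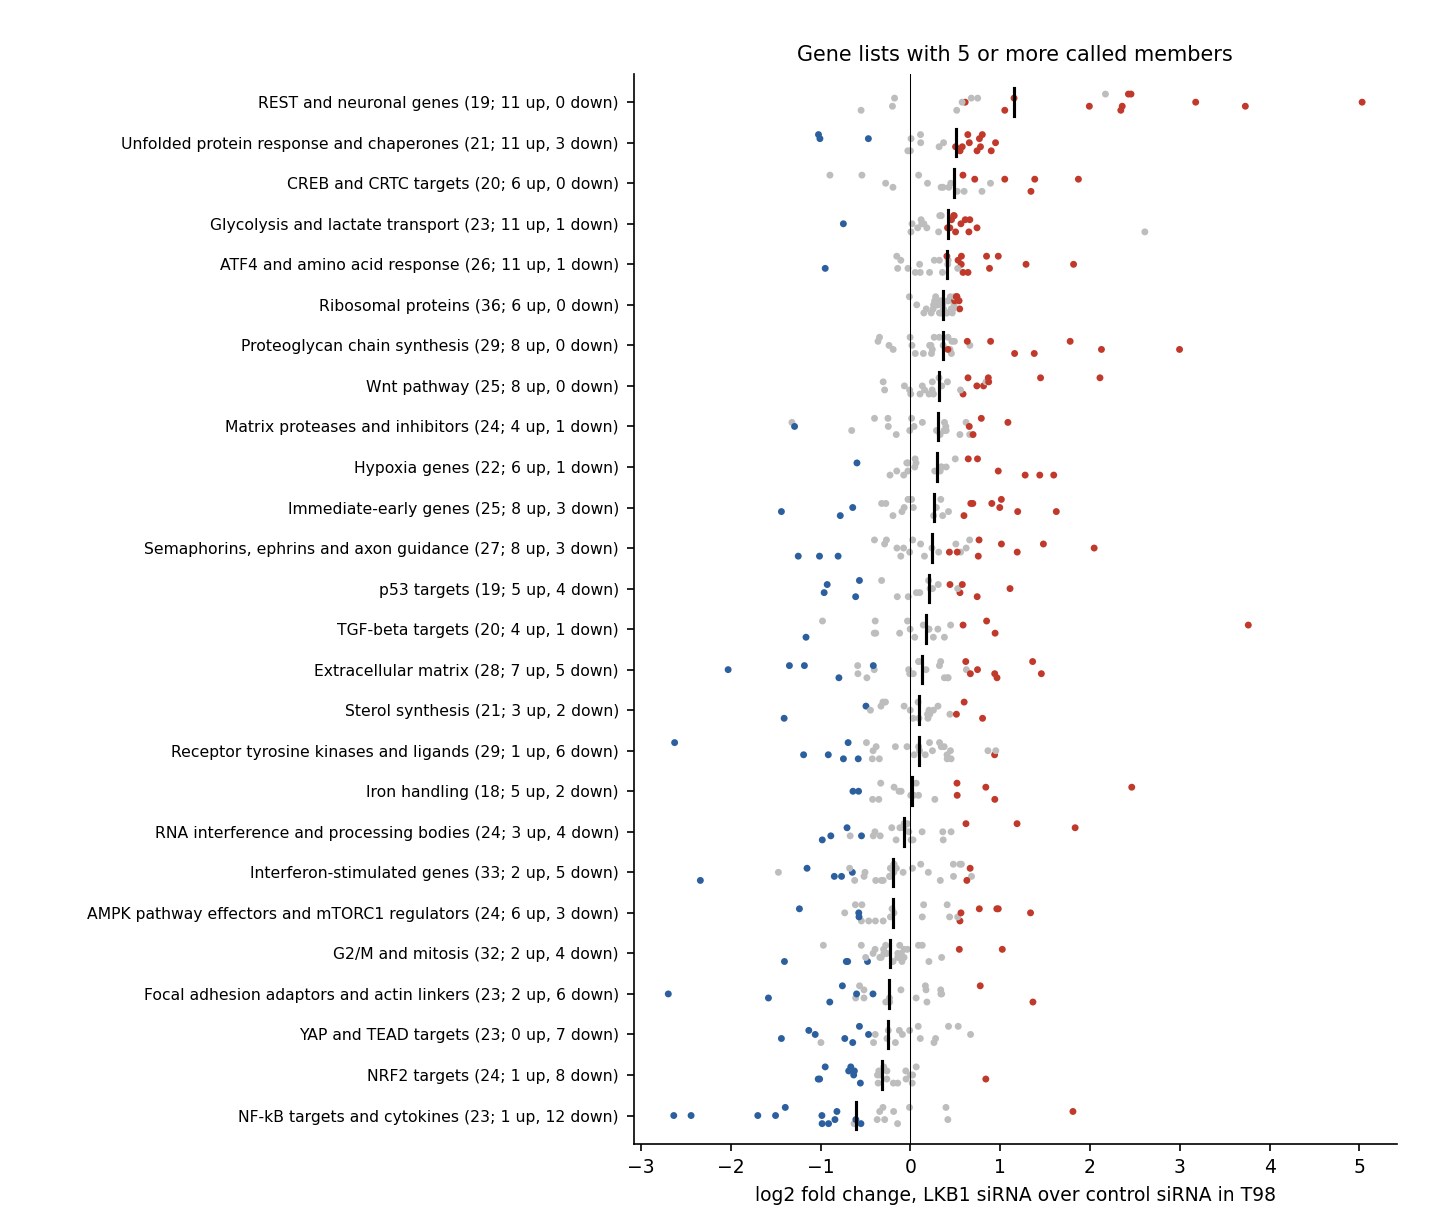
T98 log2 fold change of each tested member of the gene lists with 5 or more called members and at least 15 tested, cell type markers left out, 1 point per gene, red for called higher, blue for called lower and grey for not called, with a black bar at the list median. Numbers beside each name are the genes tested and called. The medians run from −0.61 for NF-kB targets to 1.15 for REST and neuronal genes, against 0.02 over all genes.

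Cell cycle genes set T98 apart from U87. In T98, 0 of 32 genes of G1/S and replication rose and 1 fell (thymidylate synthase TYMS, −0.51), with a median of −0.03. Of 32 genes of G2/M and mitosis, 2 rose and 4 fell, with a median of −0.23. The 4 falls became 10 without either lane 4 library and 0 without either lane 2 library, and the TYMS call was lost without any 1 U87 library. In U87 the medians of the same lists were −0.96 and −1.42. The effect differed between the lines for 7 of the 32 G1/S and 16 of the 32 G2/M genes, where 0.828% of all genes (109) differed. PRC1, which bundles the central spindle, was at 5216 and 5625 with control siRNA and 11395 and 10629 with LKB1 siRNA in T98 and rose by 1.02 (SE 0.12, adjusted p = 0.00379), against −0.38 in U87, a difference of 1.40 (SE 0.17, adjusted p = 0.0264). The spindle kinesin KIF11 rose by 0.54 in T98 against −0.56, a difference of 1.11 (SE 0.18, adjusted p = 0.0462), and its T98 call was lost without any 1 T98 library. E2F2, a transcription factor of S phase entry, was at 684 and 610.4 with control siRNA and 675 and 702 with LKB1 siRNA in T98 (0.09) and changed by −1.93 in U87, a difference of 2.02 (SE 0.23, adjusted p = 0.0243). The mitotic receptor HMMR, in contrast, was at 7407 and 4489.5 with control siRNA and 1844 and 2573 with LKB1 siRNA and fell by 1.40 (SE 0.25, adjusted p = 0.0119) in T98, with −2.22 in U87. The G1 kinase CDK6 was at 22527 and 11193 with control siRNA and 7473 and 6209.6 with LKB1 siRNA and fell by 1.22 (SE 0.18, adjusted p = 0.00647), and its U87 value was −1.26. The difference between the lines for CDK6 was 0.04 (SE 0.25, adjusted p = 0.957).

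Most genes called in T98 had the same sign in U87. In U87 806 of the genes tested were higher (6.12%) and 937 lower (7.12%). Of the 1279 T98 rises, 446 were also called higher in U87, 1156 had the same sign there and 6 were called lower. Of the 1152 falls, 350 were also called lower in U87, 997 had the same sign and 8 were called higher. Agreement in sign between the lines over all tested genes was not computed, so the same-sign counts have no background beside them. The lines share no library. Among the 109 genes whose effect differed, 79 were more positive in T98 and 30 more negative, and 19 T98 rises and 24 T98 falls were among them.

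Over the list of REST and neuronal genes the medians were close, at 1.15 in T98 and 1.14 in U87, and the effect differed between the lines for 2 of the 19, CEND1 and KIF5C. CEND1 changed by 5.03 in T98 and 1.43 in U87, a difference of 3.60 (SE 0.29, adjusted p = 0.0164). KIF5C changed by 3.18 and 1.01, a difference of 2.17 (SE 0.27, adjusted p = 0.0278). Off that list, FAIM2, an inhibitor of Fas-mediated death in neurons, was at 10.8 and 41.9 with control siRNA and 127 and 445 with LKB1 siRNA in T98 and changed by 3.41 there and 1.36 in U87. The bicarbonate transporter SLC4A8 was at 18 and 8.48 with control siRNA and 181 and 100.4 with LKB1 siRNA in T98 and changed by 3.34 and 0.46. Its lane 4 control was under 10, so SLC4A8 met the filter only with its LKB1 siRNA libraries. The filter thus favoured a T98 rise of this gene. NEURL1B, a ubiquitin ligase of Notch ligands, rose in T98 (0.87) with a U87 value of −1.54, and its T98 call was lost without either lane 4 library.

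Falls that were particular to T98 by the test of the difference included those of C3, SERPINB2, PCSK5, BNC2 and ALDH1A1. C3 changed by −1.99 in T98 and 0.44 in U87, a difference of −2.43 (SE 0.22, adjusted p = 0.0164). SERPINB2 changed by −2.70 and −0.25, a difference of −2.45 (SE 0.22, adjusted p = 0.0164). The convertase PCSK5, at 40.6 and 76 with control siRNA and 10.5 and 31.8 with LKB1 siRNA in T98, changed by −1.54 in T98 and 0.95 in U87. The zinc finger protein BNC2 changed by −1.43 and 0.64, and ALDH1A1 by −1.32 and 0.80. TMEM130 did not pass in T98 (0.11, adjusted p = 0.809) and had a U87 value of 2.60. The test of the difference called 0 genes without either lane 2 library of T98, 2 without either lane 4 library, and 349 and 358 without the lane 5 control or lane 5 LKB1 siRNA library of U87.

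**Figure D4:**
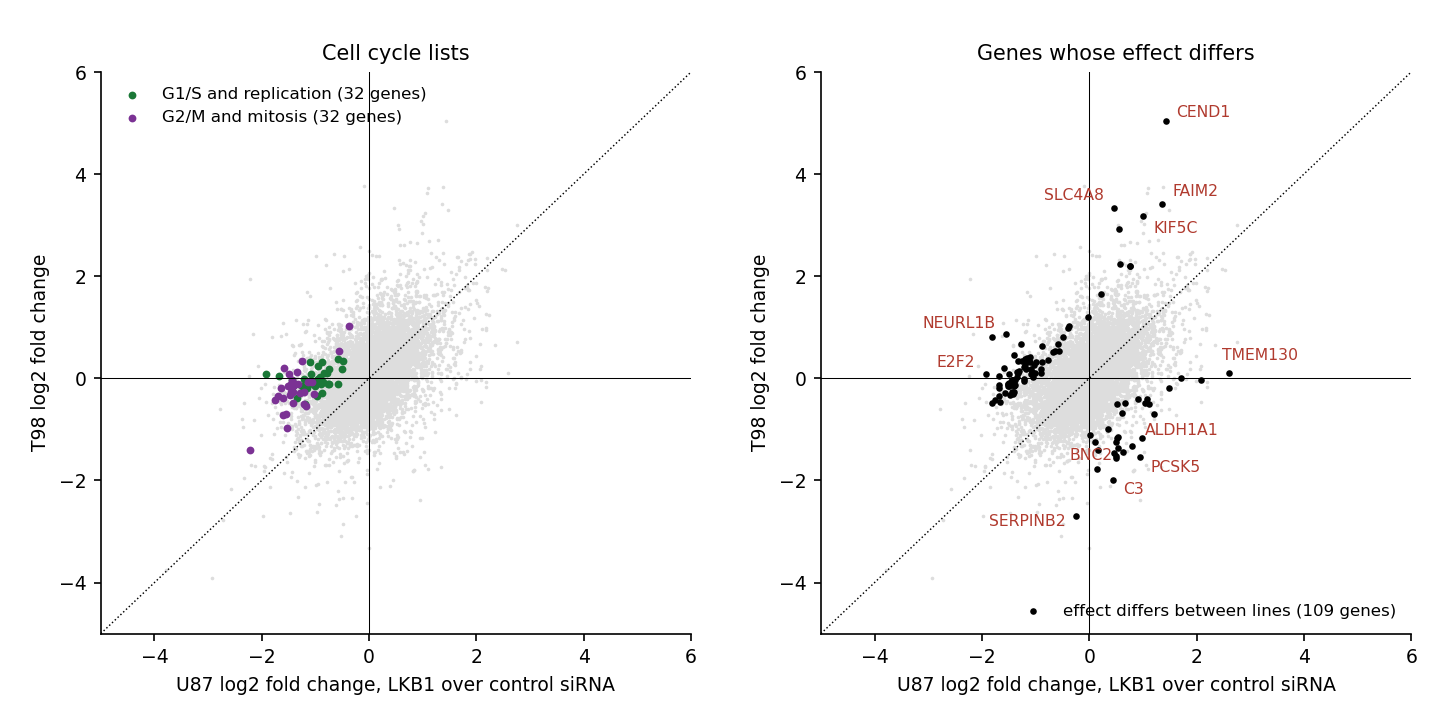
T98 log2 fold change (y axis) against U87 log2 fold change (x axis), 1 point per gene, with the 32 G1/S and 32 G2/M genes coloured on the left and the 109 genes whose effect differed between the lines in black on the right, and the dotted line marking equal change. The cell cycle genes lie left of 0 on the U87 axis, with list medians of −0.96 and −1.42 in U87 against −0.03 and −0.23 in T98.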

How the data were processed

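RNA was read from 8 libraries, 2 per group, of which the 4 T98 libraries are the subject. Libraries were made with an unstranded kit (TruSeq RNA V2, per the labels' protocols), so overlapping antisense genes cannot be told apart. The tools named are TopHat2 2.0.8b and edgeR, with the build hg19, per the submitters' processing notes. The deposited signal values are edgeR pseudo-counts made by the authors, read counts brought to a common library size, for 18815 transcripts of 18787 symbols; 21 tested symbols had been turned into dates. Inverting that adjustment with a common dispersion of 0.06803 gave whole reads for 100% of values in every library, within 0.05 read. No other columns of sample values were left unused (0).

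Values were tested as log2(value + 1) with limma-trend (limma 3.58.1, R 4.3.3), all 8 libraries sharing 1 estimate of the spread, with a lane term in each line and Benjamini-Hochberg adjustment over 13160 genes at 0.05. Same-lane T98 libraries deviated together (r = 0.771), which is the pairing check; the lane comes from the column names, and whether a lane also marks a separate culture is unknown. The row with the highest mean stood for each symbol, and 48 tested genes share their values with another gene. Alternatives were edgeR 4.0.16 and DESeq2 1.42.0 on the recovered reads, other scalings, pseudocounts and filters, each library left out, and a GC trend added after seeing the data.

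The members and the 49 gene lists were chosen with earlier results of these data known, and 13 list symbols were not matched. Named genes are the LKB1, AMPK and related kinases, the 15 leading rises and falls by the smaller within-lane change (non-overlapping groups, a group mean of 500 or more), up to 3 members per list and direction by adjusted p, the 6 highest and lowest differences from U87, and genes that passed without the lane term. Some genes that the rule names are not reported here. Procedures were tested on simulated data.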

Additional observations from a re-analysis of the deposited data

Results flagged for a closer look

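For 20 named genes the effect of the LKB1 siRNA differed between T98 and U87 by the interaction test of the limma model (adjusted p from 0.0164 to 0.048, duplicates in each group). The values are T98 log2 fold changes minus U87 log2 fold changes. Of the 20, 9 were more positive in T98. Among neuronal and transport genes the difference was 3.60 for CEND1, 2.87 for SLC4A8, 2.17 for KIF5C and 2.04 for FAIM2. It was 2.41 for NEURL1B, 2.02 for E2F2, 1.40 for PRC1, 1.11 for KIF11 and 1.24 for the calcium-binding protein S100A4. The other 11 were more negative in T98. The difference was −2.49 for PCSK5, −2.45 for SERPINB2, −2.43 for C3 and −1.36 for smooth muscle actin ACTA2. Signalling genes gave −1.92 for NOTCH3, −1.75 for EFNB2, −1.57 for TRAF1 and −1.34 for TNFAIP3. The remaining values were −2.48 for TMEM130, −2.12 for ALDH1A1 and −2.07 for BNC2.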

How the results depend on the processing

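The counts rest on pairing by lane. With no replicate block, 4 genes were higher, 0 lower and 0 differed between lines, and the 4 T98 libraries alone without the block gave 0 and 0. With the block they gave 1411 higher and 1323 lower. Leaving out 1 library gave 103 to 1599 genes higher, 51 to 1611 lower and 0 to 358 with a difference between lines. That last count was 417 by DESeq2 and 71 with no filter on low values, against 109. The other scalings, pseudocounts, filters and tools kept both T98 counts within 1.5 times of 1279 and 1152, and 0 genes were called in the opposite direction under any of the 20 alternatives. Among uncalled genes, signs turned without either lane 4 T98 library for NUAK1 (range −0.0711 to 0.0569 with 1 library left out), PRKAB1 (−0.142 to 0.111) and STRADB (−0.352 to 0.0584), and for MARK4 (−0.13) and PRKAG2 (0.077) with the GC trend removed. The causes were not tested. Of the 192 called genes that the naming rule selected, 15 lost the call with the GC trend removed, 5 by DESeq2 and 1 by edgeR. Depth limits precision most for the 310 tested genes with under 20 reads in every T98 library.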

Other observations

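Genes of RNA interference and processing bodies changed in both directions. Of 24 tested, 3 rose (12.5%) and 4 fell (16.7%), against 9.72% and 8.75% of all genes, with a median of −0.07. DICER1, which cuts small RNA precursors, was at 3329 and 2223 with control siRNA and 1438 and 1316 with LKB1 siRNA and fell by 0.98 (SE 0.16, adjusted p = 0.00879), and its groups did not overlap. Its partner TARBP2 was at 598 and 564 with control siRNA and 1732 and 1011 with LKB1 siRNA and rose by 1.19 (SE 0.18, adjusted p = 0.00769), also without overlap. LSM14A rose by 1.83 and was at 1092 and 1279.8 with control siRNA and 4249 and 4186 with LKB1 siRNA. The decapping factor DCP1A fell by 0.71, and the Argonaute EIF2C1 fell by 0.55 while EIF2C4 rose by 0.62. Without either lane 2 library, LSM14A alone of the 24 still passed, and without either lane 4 library 2 rose and 7 fell.

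Of 12 fibroblast and pericyte markers, 0 stayed under 10 across all T98 libraries. DCN was nearly absent on lane 2, at 0.145 and 44.9 with control siRNA and 2.51 and 16 with LKB1 siRNA. The summed level of the 12 was 29580 to 39690 in the controls and 57180 to 70150 with LKB1 siRNA. The surface protein THY1 was at 4795 and 7045 with control siRNA and 15880.0 and 14316 with LKB1 siRNA and rose by 1.38 (SE 0.19, adjusted p = 0.0057), and collagen COL1A2 rose by 0.94, whereas ACTA2 was at 168 and 438 with control siRNA and 81.2 and 157 with LKB1 siRNA and fell by 1.26 (SE 0.16, adjusted p = 0.00463). Of 14 BCL2 family genes, the pro-apoptotic BBC3 (1.11) and BCL2L11 (0.63) and the protective BCL2L1 (0.53) rose and the protective MCL1 fell (−0.58). These were 21.4% and 7.14% of the family, against 9.72% and 8.75% of all genes. Of 20 TGF-beta targets 4 rose (20%) and 1 fell (5%). PMEPA1, a feedback inhibitor of that pathway, was at 1827 and 1832 with control siRNA and 3221 and 3841 with LKB1 siRNA and rose by 0.94 (SE 0.13, adjusted p = 0.00579), and ID2, an inhibitor of helix-loop-helix factors, was at 1072 and 1271 with control siRNA and 367 and 737 with LKB1 siRNA and fell by 1.16. Among 30 Polycomb genes 1 rose (3.33%) and 3 fell (10%), near the 8.75% of all genes that fell, with SCML2 at 305 and 223 with control siRNA and 18.6 and 72.8 with LKB1 siRNA (−2.78). ACTA2 and PMEPA1 passed whichever library was left out, and the other genes of this paragraph were lost without the lane 2 control.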
